A study of Mus musculus with 40 samples.

Results

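The genes described here are 8 members of the cholesterol synthesis pathway and its control: the enzymes Hmgcs1, Mvd, Idi1, Sqle, Nsdhl and Dhcr7, the transcription factor Srebf2 (SREBP2) and the sterol-dependent retention protein Insig1. They were found by gene symbol among the probe sets that carry 1 symbol, and of several such probe sets for a gene the brightest on average was used. All 8 were measured, out of 19937 genes in all. They were followed across 40 Affymetrix arrays of brain RNA from C57/Bl6 mice at postnatal day 9, in 8 groups of 5 arrays. The study gave the pups the immunomodulatory peptide IDR-1018 (here IDR), the bacterial endotoxin lipopolysaccharide (LPS) and hypoxia-ischaemia (HI), an injury in which brain tissue loses oxygen and blood supply.

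In the LPS/HI+IDR and LPS/HI groups, pups had peptide or vehicle 4 h before LPS and HI 14 h after LPS, and tissue was taken 6 h after HI, which is 20 h after LPS. The left hemisphere was the injured one and the right the uninjured one, giving the groups LPS/HI+IDR injured, LPS/HI injured, LPS/HI+IDR uninjured and LPS/HI uninjured. In the LPS+IDR group the peptide came 4 h before LPS and the brain was removed 6 h after LPS. In the LPS group the brain was removed 6 h after LPS. The IDR and Vehicle groups had only peptide or only vehicle, 10 h before removal. The labels describe no group with hypoxia-ischaemia but no LPS, and none with LPS alone taken 20 h later, so LPS, HI and time cannot be told apart where an LPS/HI group is set against Vehicle or IDR. They give neither the pups' sex nor the animal behind each array, so p-values measure the spread between arrays, which may be partly technical.

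Cholesterol is built from acetyl-CoA through mevalonate, isoprenoids, squalene and a series of sterols. When sterols in the endoplasmic reticulum run low, the protein SREBP2 and its partner SCAP are released together from INSIG proteins. SREBP2 is then cleaved in the Golgi and switches on most enzymes of the pathway. Insig1 is itself a target, so the pathway restrains its own activator. Lipoproteins of the blood do not cross the blood-brain barrier, so the brain makes its own cholesterol, and in rodents the demand is high in the weeks after birth, when neurons, astrocytes and oligodendrocytes build membranes and myelin.

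SREBP2 binds sterol regulatory elements near the starts of its targets, often beside CCAAT boxes bound by NF-Y. Promoter windows of 250 bases before to 50 bases after the start were taken from RefSeq for 7 of the 8 genes, in build GRCm38.p6 (Sqle is named only). Shown are the windows of Hmgcs1 and Srebf2, which hold the element-like letters searched for, and of Mvd and Nsdhl, whose signals differed most between the injured hemisphere without peptide and Vehicle. They lie at chr13:119690101-119690400 (plus strand), chr15:82147019-82147318 (plus strand), chr8:122443373-122443672 (minus strand) and chrX:72918271-72918570 (plus strand). Capitals mark TCACNCCA and CCAAT on either strand.
Hmgcs1: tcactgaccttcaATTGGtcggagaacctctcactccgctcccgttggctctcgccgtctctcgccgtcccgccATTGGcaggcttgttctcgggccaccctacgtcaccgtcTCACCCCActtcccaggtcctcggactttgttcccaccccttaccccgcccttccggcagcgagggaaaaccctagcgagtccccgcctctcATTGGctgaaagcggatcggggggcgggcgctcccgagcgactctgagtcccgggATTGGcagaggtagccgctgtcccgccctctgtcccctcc
Srebf2: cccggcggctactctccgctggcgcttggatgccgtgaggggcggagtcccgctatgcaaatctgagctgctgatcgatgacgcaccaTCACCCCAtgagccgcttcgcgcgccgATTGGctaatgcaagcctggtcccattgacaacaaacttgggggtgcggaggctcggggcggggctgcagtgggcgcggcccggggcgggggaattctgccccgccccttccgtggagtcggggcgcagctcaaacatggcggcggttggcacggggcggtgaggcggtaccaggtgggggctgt
Mvd: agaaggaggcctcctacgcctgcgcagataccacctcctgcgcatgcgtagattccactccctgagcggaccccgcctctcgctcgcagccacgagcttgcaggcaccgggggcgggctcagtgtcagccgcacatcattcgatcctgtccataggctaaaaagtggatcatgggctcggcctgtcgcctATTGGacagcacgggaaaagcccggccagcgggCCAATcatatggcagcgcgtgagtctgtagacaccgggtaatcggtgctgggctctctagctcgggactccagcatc
Nsdhl: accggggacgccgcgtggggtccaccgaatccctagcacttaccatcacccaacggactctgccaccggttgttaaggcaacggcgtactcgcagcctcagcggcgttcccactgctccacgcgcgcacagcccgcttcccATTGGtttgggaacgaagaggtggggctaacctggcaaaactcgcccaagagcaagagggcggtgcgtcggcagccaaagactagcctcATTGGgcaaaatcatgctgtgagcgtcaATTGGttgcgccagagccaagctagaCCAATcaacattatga

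The letters searched were TCACNCCAC and its first 8 letters, TCACNCCA, for the sterol regulatory element, and CCAAT for NF-Y, each on both strands (reverse complements GTGGNGTGA, TGGNGTGA and ATTGG). The shorter element form was added after the sequences were seen, and no marked element overlapped a marked CCAAT. TCACNCCAC was found in the Hmgcs1 window, at -137 from the start, and in 1.24% of the 32851 promoter windows of all mouse genes. TCACNCCA was found at that place in Hmgcs1 and at -162 in Srebf2, and in 4.36% of all windows. CCAAT was found in at least 1 window of each of the 7 genes that had one, and in 37.4% of all windows. The share counts windows and not genes. The 7 genes had 9 windows, and of the 3 windows of Dhcr7 only window 3 held CCAAT. These matches describe letters only, and a window without one says nothing about binding.

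The arrays were alike in range, with medians between 6.99 and 7.13 on the log2 scale and correlations between arrays of 0.986 to 0.998. The brain tissue label fitted the markers: all 12 measured neuronal markers and all 10 astrocyte markers lay above the median gene, as did 10 of 11 markers of the oligodendrocyte lineage, 9 of 9 of endothelium and 6 of 11 of microglia, but 0 of 7 of neutrophils and monocytes. Arrays with high Xist numbered 3 of 5 in LPS/HI+IDR injured, 4 of 5 in LPS/HI injured, 3 of 5 in LPS/HI+IDR uninjured, 4 of 5 in LPS/HI uninjured, 2 of 5 in LPS+IDR, 5 of 5 in LPS, 1 of 5 in IDR and 2 of 5 in Vehicle, so sex was not balanced. LPS/HI injured replicate 3 had both high Xist (11.2) and a high mean of Y-linked genes (8.01), unlike any other array, and results that change without it are given both ways. LPS/HI uninjured replicate 3 had high Xist (11.6) but a low mean of Y-linked genes (4.27), so these arrays of the same number differed in Y-linked signal. In bulk tissue, fewer cells of a type and less RNA per cell cannot be told apart.

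Across the 8 groups the genes kept a narrow range. The Vehicle group had the highest mean for 6 genes, while for Dhcr7 and Srebf2 the LPS group did. The LPS/HI injured group had the lowest mean for Hmgcs1, Mvd, Idi1, Sqle and Nsdhl. The span between the highest and lowest group mean was widest for Mvd (0.63 on the log2 scale) and Nsdhl (0.61) and was 0.25 for Hmgcs1. Groups next to each other in this order lay close: in all 56 neighbouring pairs over the 8 genes the ranges overlapped, and in 52 the gap was smaller than the larger of their standard deviations. This describes the order and is no test of a difference. Signals of different probe sets are not comparable as levels, so no gene is ranked above another.

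**Figure D1:**
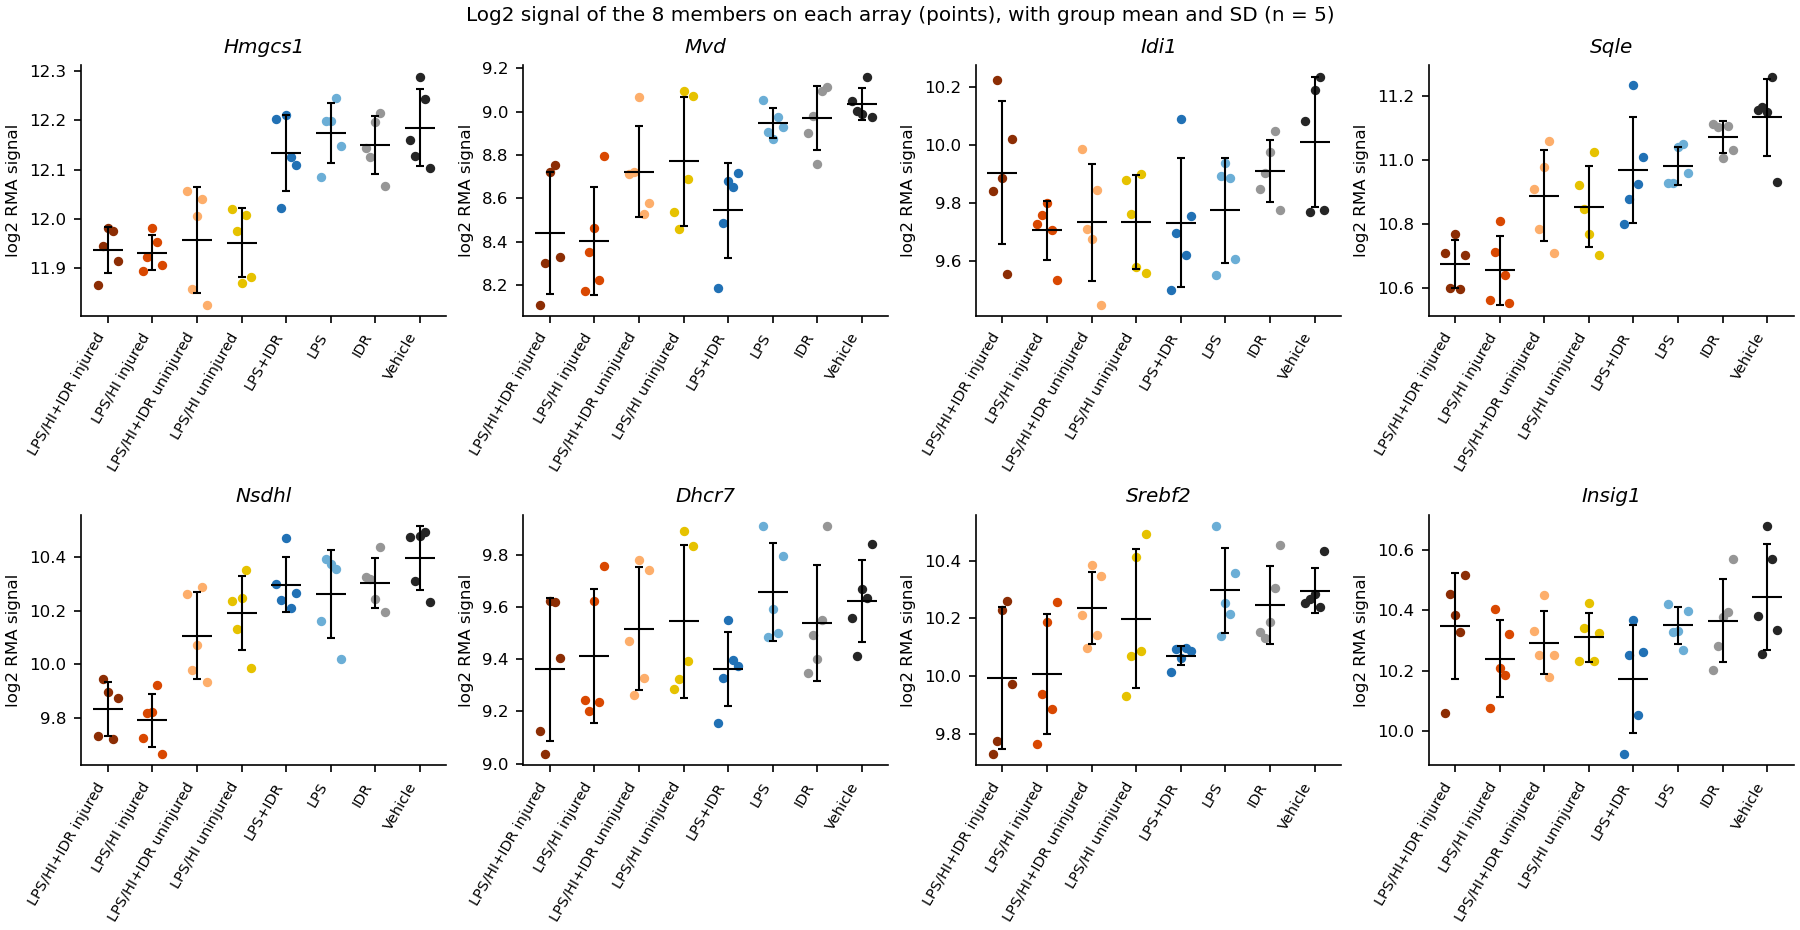
Log2 RMA signal of each of the 8 genes (panels) on every array, by group along the horizontal axis from LPS/HI+IDR injured to Vehicle; points are arrays and bars show the mean and SD (n = 5). For Nsdhl and Sqle the points of both injured groups lie below all points of Vehicle and IDR, while for Insig1 and Dhcr7 the groups overlap.

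The question for the injured hemisphere was how far the pathway differed from brains that had vehicle or peptide alone. Hmgcs1, Mvd, Sqle and Nsdhl fell in LPS/HI injured against Vehicle, by limma with Benjamini-Hochberg adjustment over all genes (adjusted p under 0.05). These 4 of 8 stand beside 3.89% of all genes called lower in that comparison. The 8 genes and the lists below were chosen with earlier results of these data known. Shares and medians of all genes, here and below, therefore give context and are no test of a set. All 8 log2 fold changes were negative, as were 54.5% of those of all genes, with a median of -0.30 against -0.01 over all genes. In LPS/HI+IDR injured against IDR, which shares no array with the first comparison, Hmgcs1, Mvd, Sqle and Nsdhl again fell, 4 of 8 beside 2.35% of all genes called lower, and the median was -0.23 against -0.01. The 4 genes act at the entry to the pathway (Hmgcs1), at the end of the mevalonate stage (Mvd), at squalene (Sqle) and among the late sterols (Nsdhl).

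Hmgcs1 makes HMG-CoA, an early intermediate of the mevalonate stage. Its log2 signals were 11.89, 11.92, 11.98, 11.95 and 11.91 in LPS/HI injured, against 12.16, 12.13, 12.29, 12.24 and 12.10 in Vehicle. In the groups with peptide they were 11.87, 11.94, 11.98, 11.98 and 11.92 in LPS/HI+IDR injured, against 12.14, 12.13, 12.20, 12.22 and 12.07 in IDR. In both pairs every injured array lay below every array of its control, with little spread inside the injured groups. The log2 fold change was -0.25 ± 0.06 (SE, n = 5 each; 95% interval -0.38 to -0.13, adjusted p = 0.0159) without peptide and -0.21 ± 0.05 (adjusted p = 0.0378) with it, so the signal fell by 16.1% without peptide. Both calls were near the threshold. The first was lost without Vehicle replicate 4 (adjusted p = 0.0514) and with Xist as a covariate (adjusted p = 0.0658). The second was lost in 7 of 10 fits that left out 1 array, where its adjusted p ran from 0.0324 to 0.0975, and with Xist as a covariate (adjusted p = 0.108) or the replicate number as a block (adjusted p = 0.129). High Xist was found on 3 of 5 LPS/HI+IDR injured arrays and 1 of 5 IDR arrays.

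Mvd decarboxylates mevalonate diphosphate to isopentenyl diphosphate, the unit from which all isoprenoids are built. Its log2 signals were 8.17, 8.35, 8.46, 8.22 and 8.80 in LPS/HI injured, against 9.05, 9.00, 8.99, 9.16 and 8.98 in Vehicle. With peptide they were 8.11, 8.30, 8.72, 8.75 and 8.33 in LPS/HI+IDR injured, against 8.90, 8.98, 8.76, 9.10 and 9.11 in IDR. The injured arrays were spread over a wide range that ended below the control arrays in both pairs. With peptide the margin was narrow, since the highest injured array read 8.75 and the lowest IDR array 8.76. The log2 fold change was -0.63 ± 0.10 (SE; 95% interval -0.85 to -0.42, adjusted p = 0.0014) in LPS/HI injured over Vehicle, and the signal fell by 35.6%. With peptide it was -0.53 ± 0.12 (adjusted p = 0.0222), and the call was lost in 4 of 10 fits without 1 array, where the adjusted p reached 0.0608. It was also lost with Xist as a covariate (adjusted p = 0.069) and with the replicate number as a block (adjusted p = 0.0593).

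Sqle oxidises squalene in the first oxygen-dependent step of the sterol branch. Its log2 signals were 10.56, 10.71, 10.81, 10.64 and 10.55 in LPS/HI injured, against 11.16, 11.17, 11.15, 11.26 and 10.93 in Vehicle. With peptide they were 10.71, 10.60, 10.77, 10.60 and 10.70 in LPS/HI+IDR injured, against 11.11, 11.10, 11.01, 11.11 and 11.03 in IDR. The groups of each pair did not overlap. The log2 fold change was -0.48 ± 0.07 (SE; 95% interval -0.64 to -0.32, adjusted p = 0.0012) without peptide and -0.40 ± 0.06 (adjusted p = 0.0016) with it, and the signal fell by 28.2% without peptide.

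Nsdhl, a sterol dehydrogenase that works with Msmo1 and Hsd17b7 to remove methyl groups from lanosterol-derived sterols, lies on the X chromosome. Its log2 signals were 9.72, 9.82, 9.82, 9.92 and 9.66 in LPS/HI injured, against 10.48, 10.31, 10.48, 10.49 and 10.23 in Vehicle. With peptide they were 9.73, 9.94, 9.89, 9.72 and 9.87 in LPS/HI+IDR injured, against 10.33, 10.32, 10.24, 10.44 and 10.19 in IDR. Again no injured array reached its control group. The log2 fold change was -0.61 ± 0.07 (SE; 95% interval -0.77 to -0.45, adjusted p = 0.00014) without peptide and -0.47 ± 0.07 (adjusted p = 0.0015) with it. The signal fell by 34.4% without peptide. Non-overlap with the control group, all downward, was found for these 4 genes in both pairs, beside 4.28% of all genes in the pair without peptide and 3.22% in the pair with it.

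These calls did not rest on the array with both sex-linked signals. Without LPS/HI injured replicate 3 the adjusted p was 0.000474 for Nsdhl, 0.00106 for Sqle, 0.00313 for Mvd and 0.0168 for Hmgcs1, and 5 genes instead of 4 passed, beside 4.33% of all genes called lower, the added one being Srebf2 (adjusted p = 0.0389). Over all fits without 1 array, 3 to 5 genes passed in LPS/HI injured against Vehicle and 2 to 4 in LPS/HI+IDR injured against IDR. Nsdhl and Sqle passed in all 10 fits of each pair.

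Srebf2 encodes the transcription factor that drives the pathway. Its log2 signals were 9.77, 9.94, 10.19, 9.89 and 10.26 in LPS/HI injured, against 10.26, 10.27, 10.28, 10.24 and 10.43 in Vehicle. The highest injured array overlapped the Vehicle range, and the change of -0.29 ± 0.09 (SE) missed the threshold (limma adjusted p = 0.0639). It passed without LPS/HI injured replicate 3 or 5 (adjusted p = 0.0389 and 0.0223), and with the replicate number as a block (adjusted p = 0.0233). With peptide the log2 signals were 9.73, 9.78, 10.23, 10.26 and 9.97 in LPS/HI+IDR injured, against 10.15, 10.13, 10.19, 10.31 and 10.46 in IDR, a change of -0.25 ± 0.11 (adjusted p = 0.229). The SREBP2 protein and its cleavage were not measured by these arrays.

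Idi1 turns isopentenyl diphosphate into its reactive isomer, and its array result depended on the probe set. With the probe set of higher mean signal, log2 signals were 9.73, 9.76, 9.80, 9.70 and 9.53 in LPS/HI injured, against 10.08, 9.77, 10.19, 10.23 and 9.78 in Vehicle. The groups overlapped, and the change of -0.31 ± 0.10 (SE) had an adjusted p of 0.0700 (0.0300 with the replicate number as a block). The other probe set, whose mean differed by less than 0.01, read 9.14, 9.50, 9.58, 9.13 and 9.50 in LPS/HI injured, against 10.15, 10.16, 9.99, 10.49 and 9.77 in Vehicle. There the groups did not overlap, and the change was -0.74 ± 0.13 (adjusted p = 0.00221). With peptide the used probe set gave -0.01 ± 0.11 (adjusted p = 0.991) in LPS/HI+IDR injured against IDR, while the other gave -0.46 ± 0.09 (adjusted p = 0.00977). Both probe sets had only a moderate correlation over the 40 arrays (r = 0.453), so the Idi1 result is uncertain. Between the hemispheres without peptide the used probe set gave -0.03 (adjusted p = 0.931), and the other gave -0.44 ± 0.11 (adjusted p = 0.0449). With peptide the signs differed, 0.17 (adjusted p = 0.601) in the used probe set and -0.26 (adjusted p = 0.166) in the other.

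Dhcr7, which catalyses the last step to cholesterol, and Insig1 did not pass the threshold in either pair. Dhcr7 had mean log2 signals of 9.41 ± 0.26 in LPS/HI injured and 9.62 ± 0.16 in Vehicle (SD, n = 5 each), a change of -0.21 ± 0.11 (SE; 95% interval -0.45 to 0.03, limma adjusted p = 0.315). Insig1 had 10.24 ± 0.13 in LPS/HI injured and 10.44 ± 0.18 in Vehicle, a change of -0.20 ± 0.09 (95% interval -0.40 to -0.01, adjusted p = 0.196). With peptide the changes were -0.18 ± 0.13 for Dhcr7 (adjusted p = 0.543) and -0.02 ± 0.09 for Insig1 (adjusted p = 0.955). The arrays of these groups overlapped for both genes.

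The rest of the pathway was read from 12 other enzymes. In LPS/HI injured against Vehicle, 6 of the 12 fell and 0 rose, with 11 negative and a median log2 fold change of -0.24 against -0.01 over all genes. They were Tm7sf2 (-0.48 ± 0.09, a sterol reductase), Hsd17b7 (-0.46 ± 0.10), Mvk (-0.43 ± 0.09, mevalonate kinase), Fdft1 (-0.38 ± 0.07, squalene synthase), Fdps (-0.35 ± 0.08, farnesyl diphosphate synthase) and Msmo1 (-0.31 ± 0.09), with limma adjusted p from 0.00299 for Fdft1 to 0.0401 for Msmo1. Without LPS/HI injured replicate 3, 5 of the 12 passed, Msmo1 being lost (adjusted p = 0.0708). In LPS/HI+IDR injured against IDR only Fdft1 passed (-0.31 ± 0.06, adjusted p = 0.0105), with 10 of 12 negative, beside 52.3% of all genes, and a median of -0.08.

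Of 3 measured SREBP2 targets in cholesterol uptake and transport, Stard4, which carries cholesterol between membranes, and Tmem97 fell in both pairs. Stard4 changed by -0.64 ± 0.08 (adjusted p = 0.00019) in LPS/HI injured over Vehicle and by -0.42 ± 0.09 (adjusted p = 0.0142) in LPS/HI+IDR injured over IDR. Tmem97 changed by -0.48 ± 0.07 (adjusted p = 0.00077) without peptide and by -0.38 ± 0.07 (adjusted p = 0.00487) with it. Npc1, which exports cholesterol from lysosomes, had a log2 fold change of 0.06 without peptide and did not pass. Of the 4 other genes of SREBP control (Srebf1, Scap, Insig2 and Mbtps1), 0 passed in either pair.

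Among fatty acid synthesis genes, which SREBP1 mainly drives, 3 of 8 fell in LPS/HI injured against Vehicle, led by Elovl6 (-0.32 ± 0.06) and Acaca (-0.27 ± 0.07), and with peptide Acaca fell (-0.27 ± 0.06). Abca1, the cholesterol exporter induced by LXR, rose in both pairs, by 0.24 ± 0.06 without peptide and 0.29 ± 0.06 with it, as 1 of 7 listed LXR targets and efflux genes. Ch25h, which makes an oxysterol that restrains SREBP2 processing, rose by 0.34 ± 0.09 without peptide and by 0.55 ± 0.14 with it. Lipa, the lysosomal cholesteryl ester hydrolase, rose by 0.31 ± 0.08 with peptide. The levels of sterols themselves were not measured.

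**Figure D2:**
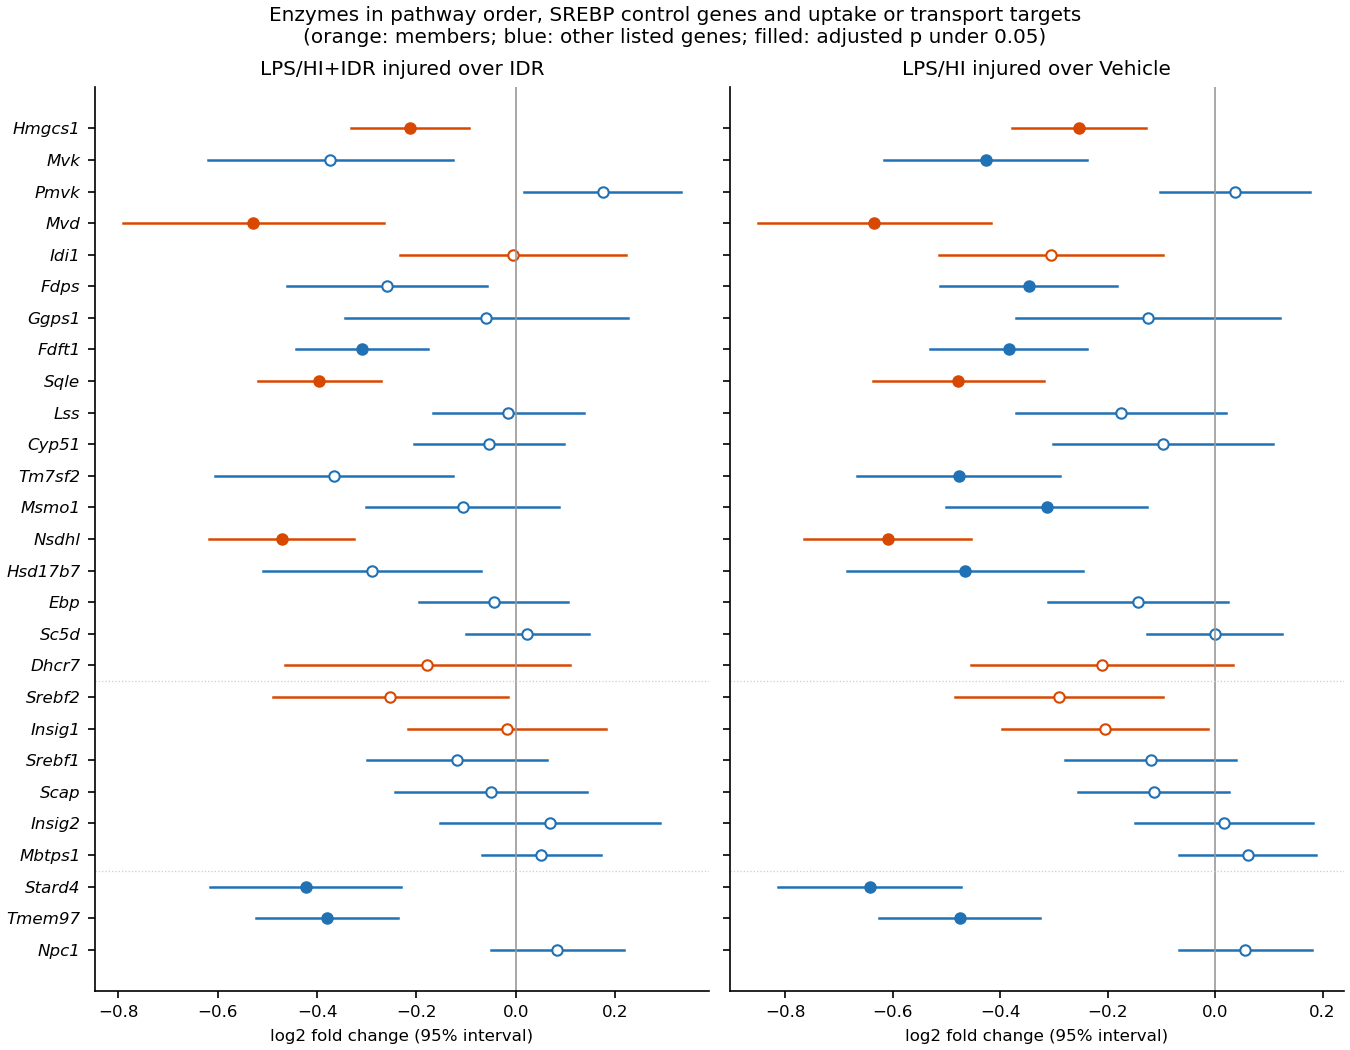
Log2 fold changes with 95% intervals (horizontal axis) of the pathway's enzymes in order, then SREBP control genes, then uptake and transport targets, for LPS/HI+IDR injured over IDR (left) and LPS/HI injured over Vehicle (right); orange marks the 8 genes described, blue the other listed genes, and filled points an adjusted p under 0.05. Filled points lie left of 0 in both panels, with 4 orange ones in each.

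Markers of cell types moved in the same comparisons, and their part in the result was not tested. In LPS/HI injured against Vehicle, 2 of 12 neuronal markers fell (log2 fold changes of -0.86 for Neurod6 and -0.47 for Tubb3), and the mean level of the list lay between 11.08 and 11.15 in LPS/HI injured, against 11.28 to 11.33 in Vehicle. In the pair with peptide 2 of 12 fell (-0.75 for Neurod6 and -0.26 for Grin2b), and the list lay between 11.11 and 11.18 in LPS/HI+IDR injured, against 11.22 to 11.34 in IDR. The neuronal list thus did not overlap in either pair, as for Nsdhl and Sqle. Of the 11 markers of the oligodendrocyte lineage, without peptide Pdgfra (-0.32) and Cspg4 fell and Mbp rose (0.44), and the list overlapped, with 9.27 to 9.66 in LPS/HI injured and 9.19 to 9.52 in Vehicle. Without LPS/HI injured replicate 3 the myelin genes Mog, Mag and Ugt8a were also called higher, making 4 of 11 in place of 1.

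In LPS/HI injured against Vehicle, 1663 of 19937 genes were called in either direction, 776 of them lower. Of the 10 astrocyte markers 3 rose without peptide, led by Gfap (0.63) and Gjb6 (0.33), with list levels of 10.21 to 10.39 in LPS/HI injured and 10.14 to 10.23 in Vehicle. Of 11 microglial markers 4 rose, led by Itgam (0.89) and C1qa (0.72), and 1 fell, and the list levels were 7.77 to 8.08 in LPS/HI injured and 7.61 to 7.91 in Vehicle. Of 9 endothelial markers 2 rose and 1 fell (-0.38 for Slco1c1 and 0.31 for Pecam1 were the strongest), with 8.75 to 9.00 in LPS/HI injured and 8.83 to 8.93 in Vehicle. Without LPS/HI injured replicate 3, 5 microglial markers and 1 endothelial marker were called higher. Of 7 markers of neutrophils and monocytes 1 rose, Ms4a6c by 1.19, and the list lay between 5.58 and 5.74 in LPS/HI injured, against 5.17 to 5.50 in Vehicle. RMA signals have no zero, so the absence of a marker cannot be read from them.

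The hemispheres of the LPS/HI groups share the same LPS and time after it and differ in the side of injury. Nsdhl fell in LPS/HI injured against LPS/HI uninjured, the only 1 of the 8 genes to do so by limma, beside 0.813% of all genes called lower. Its log2 signals were 9.72, 9.82, 9.82, 9.92 and 9.66 in LPS/HI injured, against 10.24, 10.13, 10.25, 10.35 and 9.99 in LPS/HI uninjured, and the groups did not overlap (1.61% of all genes did not overlap downward). The log2 fold change was -0.40 ± 0.08 (SE; 95% interval -0.57 to -0.23, adjusted p = 0.0144). The call held in all 10 fits without 1 array, with adjusted p between 0.0085 and 0.0457. All 8 log2 fold changes were negative, as were 45.3% of those of all genes, with a median of -0.16 against 0.01 over all genes.

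Between the hemispheres without peptide, deviations from the group means correlated between arrays of the same number (r from 0.392 to 0.646), and 5 of 5 correlated best with their own number. Between the uninjured groups with and without peptide 4 of 5 also did (r up to 0.591), and between IDR and Vehicle 3 of 5. Those groups differ in treatment and cannot share a pup, so the number cannot be read as pairing the hemispheres of a pup. With the number as a replicate block, 3 genes passed in place of 1: Nsdhl, Mvd (adjusted p = 0.0139) and Srebf2 (adjusted p = 0.0315). The block raised the share of all genes called lower to 3.89%, so it added calls across the array. With number 3 left out of that fit, an alternative chosen after seeing the data, 4 genes passed beside 4.87% of all genes called lower: Nsdhl (adjusted p = 0.00655), Mvd (0.0288), Sqle (0.0375) and Srebf2 (0.0464). Per number, the injured minus uninjured difference in Mvd was negative in 5 of 5, from -0.63 to -0.10. The lowest, -0.63, was that of number 3, whose hemispheres differed in Y-linked signal. The difference was negative in 5 of 5 for Nsdhl (-0.51 to -0.32), Srebf2 (-0.24 to -0.13) and Dhcr7 (-0.27 to -0.04, the lowest again number 3). It was negative in 4 of 5 for Sqle, Idi1 and Insig1, and in 3 of 5 for Hmgcs1. Hmgcs1 had a difference of -0.02 ± 0.06 (95% interval -0.15 to 0.11, adjusted p = 0.938).

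With peptide, 0 of the 8 genes passed between LPS/HI+IDR injured and LPS/HI+IDR uninjured, beside 2.5% of all genes called in either direction. At an unadjusted p under 0.05 in limma there were 3 (Nsdhl, Sqle and Srebf2), beside 2870 genes in all. For Nsdhl the log2 signals were 9.73, 9.94, 9.89, 9.72 and 9.87 in LPS/HI+IDR injured, against 10.26, 9.98, 10.07, 10.29 and 9.93 in LPS/HI+IDR uninjured. The highest injured array reached the lowest uninjured one, and the change was -0.27 ± 0.08 (95% interval -0.45 to -0.09, adjusted p = 0.112). The 8 genes held 0 that did not overlap downward, beside 1.94% of all genes. Per number, Nsdhl and Sqle were lower in the injured hemisphere in 5 of 5. Mvd, Srebf2 and Dhcr7 were lower in 4 of 5, and Idi1 and Insig1 in 2 of 5.

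Whether the hemisphere difference itself differed with peptide was tested as an interaction over 20 arrays. None of the 8 genes passed (0 of 8, beside 0% of all genes, with limma adjusted p of 1.00), and 0 had an unadjusted p under 0.05. Over all genes, 361 had an unadjusted p under 0.05. For Nsdhl the difference of differences was 0.13 ± 0.11 (95% interval -0.11 to 0.36), for Idi1 0.20 ± 0.15 (-0.12 to 0.52), and for Mvd 0.09. These intervals are wide beside the hemisphere differences, so the call of Nsdhl without peptide and its absence with peptide do not show a difference between them.

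**Figure D3:**
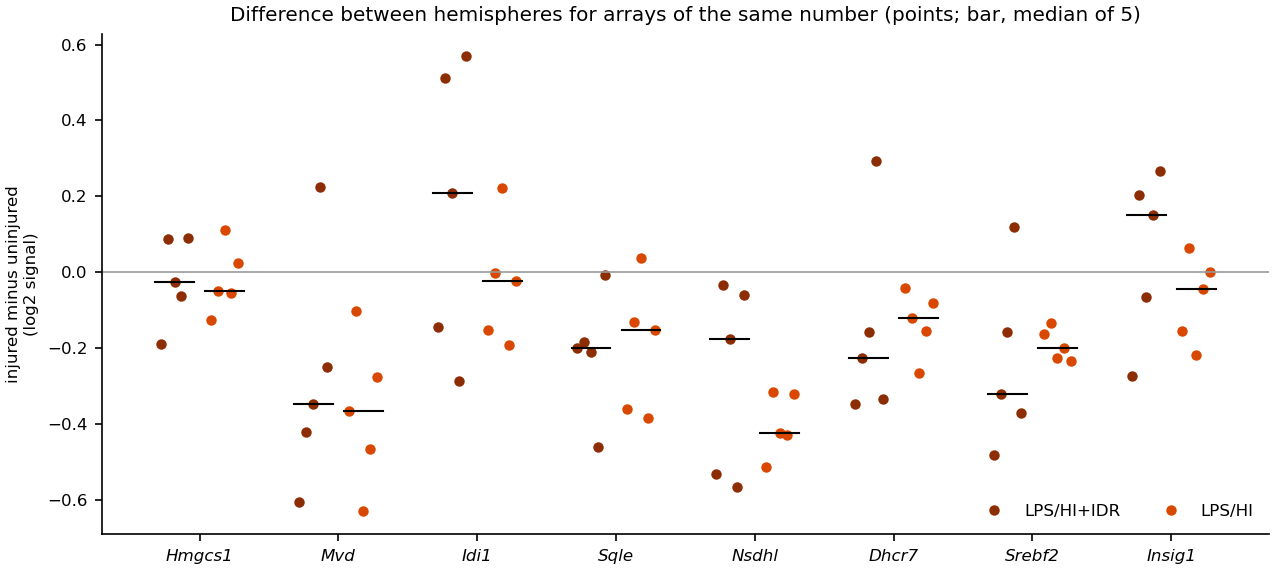
Injured minus uninjured difference in log2 signal for arrays of the same number (vertical axis), for the 8 genes, with LPS/HI+IDR left and LPS/HI right for each gene; bars are medians of 5. Without peptide all 5 points of Nsdhl, Mvd, Srebf2 and Dhcr7 lie below 0, and points of Hmgcs1 lie on both sides of it.

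Of the other enzymes, Tm7sf2 fell between the hemispheres without peptide (-0.34 ± 0.08, adjusted p = 0.0368), 1 of 12, and 0 of 12 passed with peptide. Among markers, Neurod6 fell in the injured hemisphere without peptide (-0.73) and with it (-0.77). Without peptide Fgfr3 (-0.44, 1 of 10 astrocyte markers), Pdgfra (-0.35, 1 of 11 of the oligodendrocyte lineage) and P2ry12 (-0.45, 1 of 11 of microglia) fell, and Pecam1 (0.39) rose. The calls of Pdgfra (adjusted p = 0.0631) and P2ry12 (adjusted p = 0.069) were lost without LPS/HI injured replicate 3. With peptide Pecam1 (0.46) and Cdh5 (0.36) rose. Over all genes, 596 were called in either direction between the hemispheres without peptide and 498 with it. Neuronal list levels were 11.08 to 11.15 in LPS/HI injured, against 11.21 to 11.34 in LPS/HI uninjured. The part of these markers in the hemisphere difference was not tested.

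The uninjured hemisphere of LPS/HI pups was set against Vehicle and IDR. None of the 8 genes passed in LPS/HI uninjured against Vehicle (0 of 8, beside 0.436% of all genes called). However, 5 of the 8 had an unadjusted p under 0.05 in limma, beside 1312 genes in all. All 8 log2 fold changes were negative (median -0.22 against -0.03 over all genes). This comparison shares its Vehicle arrays with that of the injured hemisphere. For Hmgcs1 the log2 signals were 12.02, 11.97, 11.87, 12.01 and 11.88 in LPS/HI uninjured, against 12.16, 12.13, 12.29, 12.24 and 12.10 in Vehicle. The groups did not overlap, 1 of 8 genes beside 0.868% of all genes, and the change was -0.23 ± 0.06 (95% interval -0.37 to -0.10, adjusted p = 0.218). Sqle changed by -0.28 ± 0.08 (adjusted p = 0.262), Nsdhl by -0.21 ± 0.08 (adjusted p = 0.596) and Mvd by -0.27 ± 0.12 (adjusted p = 0.712). Of the 12 other enzymes 0 passed and 11 were negative. In this comparison 63.6% of all genes had a negative log2 fold change. In the same comparison 3 of 11 microglial markers rose, led by Itgam (0.71) and C1qa (0.62), and the neuronal list overlapped, with 11.21 to 11.34 in LPS/HI uninjured and 11.28 to 11.33 in Vehicle.

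With peptide, 0 of 8 genes passed in LPS/HI+IDR uninjured against IDR, beside 0.201% of all genes. There 4 of the 8 had an unadjusted p under 0.05, beside 1052 genes in all. Hmgcs1 read 12.06, 11.86, 12.01, 12.04 and 11.83 in LPS/HI+IDR uninjured, against 12.14, 12.13, 12.20, 12.22 and 12.07 in IDR. Again it was the 1 gene of 8 whose groups did not overlap (0.592% of all genes), with a change of -0.19 ± 0.07 (95% interval -0.33 to -0.05, limma adjusted p = 0.575). The other genes lay between -0.25 for Mvd and -0.01 for Srebf2. Set against LPS alone 6 h after LPS, 0 of 8 passed in LPS/HI uninjured over LPS (0.135% of all genes) and 0 of 8 in LPS/HI+IDR uninjured over LPS+IDR (0.637%). Unadjusted p under 0.05 came to 1 of 8 genes in the first, beside 848 genes in all. In the second it came to 3 of 8, beside 2532 genes in all. Hmgcs1 was -0.22 ± 0.06 in the first (adjusted p = 0.333) and -0.18 ± 0.07 in the second (adjusted p = 0.288). All 8 log2 fold changes were negative in the first, beside 55.1% of all genes. In the second 5 of 8 were positive, with a median of 0.06, and 43.9% of all genes were negative. There Srebf2 had 0.17 ± 0.06 (adjusted p = 0.315), and its LPS/HI+IDR uninjured arrays all lay above its LPS+IDR arrays, as for 1 of 8 genes. In the first, 1 of 8 genes did not overlap, Hmgcs1, whose LPS/HI uninjured arrays all lay below its LPS arrays. The share of all genes without overlap is not given for these comparisons, so nothing is read from either count.

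The LPS comparisons asked what endotoxin did to the pathway after 6 h without hypoxia-ischaemia. In LPS against Vehicle 0 of 8 genes passed, beside 0.833% of all genes, with limma adjusted p from 0.737 to 0.999. Of the 8, 1 gene, Sqle, had an unadjusted p under 0.05, beside 1240 genes in all. The mean log2 signals of Hmgcs1 were 12.18 ± 0.06 in LPS and 12.18 ± 0.08 in Vehicle (SD), and its difference of -0.01 had a 95% interval of -0.13 to 0.11. Sqle had -0.15 ± 0.07 and Idi1 -0.23 ± 0.11 (SE). Thus at 6 h a change in Hmgcs1 beyond this interval was not seen, whereas other genes had wider intervals, such as -0.47 to 0.00 for Idi1.

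In LPS+IDR against IDR 0 of 8 passed, beside 1.47% of all genes. Of the 8, 3 had an unadjusted p under 0.05, beside 2089 genes in all. Mvd came closest, with 8.19, 8.48, 8.68, 8.65 and 8.72 in LPS+IDR, against 8.90, 8.98, 8.76, 9.10 and 9.11 in IDR. The groups did not overlap, and the change was -0.43 ± 0.10 (SE; 95% interval -0.64 to -0.21, limma adjusted p = 0.0612), which passed only without IDR replicate 3 (adjusted p = 0.0463) among the 10 fits that left out 1 array. Srebf2 read 10.02, 10.10, 10.06, 10.10 and 10.09 in LPS+IDR, against 10.15, 10.13, 10.19, 10.31 and 10.46 in IDR. Its groups also did not overlap, making 2 of 8 downward beside 1.53% of all genes, and the change was -0.17 ± 0.06 (adjusted p = 0.334). The difference between the LPS effects with and without peptide passed for 0 of 8 genes (0.00502% of all genes). Of the 8, 1 had an unadjusted p under 0.05, beside 873 genes in all. For Mvd the difference between the LPS effects was -0.34 ± 0.12 (limma adjusted p = 0.860).

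Between these LPS groups and their controls, astrocyte, endothelial, microglial and myeloid markers moved. Gjb6 and Fgfr3 rose in LPS (0.62 and 0.51) and in LPS+IDR (0.83 and 0.39), and Tek fell in both (-0.85 and -0.80). Of 9 endothelial markers 1 fell in LPS and 3 in LPS+IDR, and the list did not overlap, with 8.40 to 8.80 in LPS and 8.83 to 8.93 in Vehicle, and 8.51 to 8.80 in LPS+IDR and 8.81 to 8.99 in IDR. Of 11 microglial markers 1 rose (C1qa, 0.44) and 1 fell (Gpr34, -0.52) in LPS, and 3 fell in LPS+IDR, led by Gpr34 (-0.56) and P2ry12 (-0.47). Ms4a6c, the 1 of 7 neutrophil and monocyte markers that passed, rose by 0.98 in LPS and by 1.34 in LPS+IDR. The neuronal list overlapped, with 11.26 to 11.34 in LPS+IDR and 11.22 to 11.34 in IDR, and 11.28 to 11.36 in LPS and 11.28 to 11.33 in Vehicle. The part of these markers in the values of Mvd and Srebf2 was not tested.

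The effect of the peptide was read at each level of treatment. In IDR against Vehicle 0 of 8 genes passed, as did 0% of all genes, and the log2 fold changes lay between -0.10 and -0.03 with 95% intervals from -0.31 to 0.14. In LPS/HI+IDR injured against LPS/HI injured 0 of 8 passed (0% of all genes), with changes from -0.05 to 0.20 and intervals from -0.35 to 0.43. In LPS/HI+IDR uninjured against LPS/HI uninjured 0 of 8 passed (0% of all genes), with changes from -0.08 to 0.04 and intervals from -0.34 to 0.27. Over all genes limma gave an unadjusted p under 0.05 for 321, 277 and 376 genes in these 3 comparisons, and for 0 of the 8 genes in each. For Hmgcs1 the 95% intervals were narrower, -0.16 to 0.09, -0.12 to 0.13 and -0.14 to 0.15 in the same order, and did not reach its change in LPS/HI injured over Vehicle (-0.25).

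In LPS+IDR against LPS 0 of 8 passed and 0% of all genes did, but 4 of the 8 and 2674 genes in all had an unadjusted p under 0.05. Mvd read 8.19, 8.48, 8.68, 8.65 and 8.72 in LPS+IDR, against 9.05, 8.91, 8.87, 8.97 and 8.93 in LPS, with no overlap. The change was -0.40 ± 0.09 (SE; 95% interval -0.60 to -0.21, limma adjusted p = 0.326). Srebf2 read 10.02, 10.10, 10.06, 10.10 and 10.09 in LPS+IDR, against 10.52, 10.14, 10.25, 10.21 and 10.36 in LPS, also without overlap, and changed by -0.23 ± 0.07 with the adjusted p at the same 0.326. These were 2 of 8 genes beside 1.6% of all genes whose groups did not overlap downward. Dhcr7 changed by -0.30 ± 0.09 and Insig1 by -0.18 ± 0.08. High Xist was found on 2 of 5 arrays of LPS+IDR and on 5 of 5 of LPS, and with Xist as a covariate the changes were -0.29 for Mvd and -0.22 for Srebf2 (adjusted p = 0.574 for both). In this comparison 0 markers of the 6 cell type lists passed, but 11 of 11 microglial and 10 of 11 oligodendrocyte lineage markers had negative log2 fold changes. Of all genes 55.9% did. The microglial list lay at 7.40 to 7.73 in LPS+IDR and 7.61 to 7.89 in LPS, and the oligodendrocyte list at 9.10 to 9.50 in LPS+IDR and 9.28 to 9.61 in LPS. The part of these markers was not tested.

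Over the 40 arrays the genes fell into 2 sets that moved together more closely. As a description, with points that share groups and arrays, Pearson's r was 0.91 for Dhcr7 with Srebf2, 0.84 for Mvd with Srebf2 and 0.75 for Mvd with Dhcr7. In the other set r was 0.88 for Sqle with Nsdhl, 0.80 for Hmgcs1 with Sqle and 0.80 for Hmgcs1 with Nsdhl. After the group means were taken out, r was 0.92 for Dhcr7 with Srebf2, 0.78 for Mvd with Srebf2, 0.64 for Sqle with Nsdhl and 0.79 for Idi1 with Nsdhl, while for Idi1 with Srebf2 it was -0.53. Set against the mean of the other 7 genes, Mvd had the highest r (0.825) and Idi1 the lowest (0.236).

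**Figure D4:**
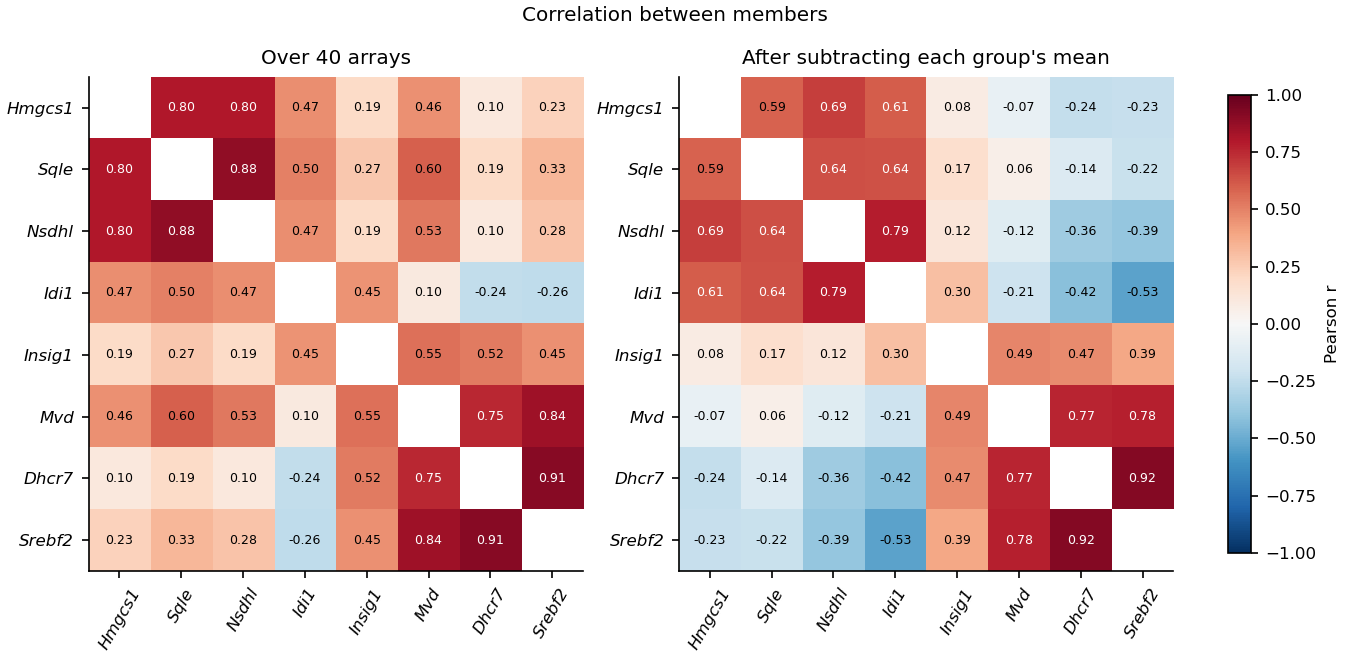
Pearson's r between pairs of the 8 genes, over the 40 arrays and after group means were removed; colours give r. Hmgcs1, Sqle and Nsdhl form a block, as do Mvd, Dhcr7 and Srebf2, and Dhcr7 with Srebf2 keeps r at 0.92 within groups. Idi1 has r of 0.47 to 0.50 with the first block over the 40 arrays, and 0.61 to 0.79 after group means were removed.

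Arrays also differed within groups in the mean level of 55 ribosomal protein genes, and the array values of some of the 8 genes followed it. Relative to their group mean, 14 arrays lay above (by 0.05 to 0.22) and 26 below (by -0.18 to -0.01), with 1 or 2 above in each group. Replicate 5 lay above in every group except LPS/HI+IDR injured, and replicate 3 in every LPS/HI group and in LPS+IDR. The level thus went partly with the array number, whose meaning the labels do not give. Dhcr7 deviated on average by 0.24 on the arrays above and by -0.13 on those below, Srebf2 by 0.17 and -0.09, and Mvd by 0.17 and -0.09. Hmgcs1 (-0.03 above and 0.01 below) and Sqle (-0.02 above and 0.01 below) hardly differed between the sides, and Idi1 ran the other way, with -0.11 above and 0.06 below. With the ribosomal level taken out, r within groups was 0.65 for Dhcr7 with Srebf2 and 0.66 for Sqle with Nsdhl. It was lower for Mvd with Srebf2 (0.45) and Mvd with Dhcr7 (0.41), and nearer 0 for Idi1 with Srebf2 (-0.14). What sets the ribosomal level apart on these arrays was not tested.

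With the ribosomal level as a covariate, an alternative chosen after seeing the data, 4 genes passed between LPS/HI injured and LPS/HI uninjured in place of 1, beside 3.07% of all genes called lower. They were Nsdhl, Mvd (-0.50, adjusted p = 0.00604), Srebf2 (-0.31, adjusted p = 0.0161) and Dhcr7 (-0.28, adjusted p = 0.0241). Without the covariate the changes were -0.37 for Mvd, -0.19 for Srebf2 and -0.13 for Dhcr7. The ribosomal level itself read 10.41, 10.44, 10.68, 10.33 and 10.66 in LPS/HI injured. In LPS/HI uninjured it read 10.27, 10.35, 10.63, 10.26 and 10.55. The covariate is thus not independent of the comparison, and an injury difference in it cannot be told apart from the adjustment. With peptide 3 passed in place of 0 between the hemispheres, beside 4.12% of all genes called lower, namely Srebf2 (adjusted p = 0.00639), Mvd (0.0222) and Dhcr7 (0.0297). In LPS/HI injured against Vehicle 6 passed beside 5% of all genes called lower, the added ones being Dhcr7 (adjusted p = 0.0118) and Srebf2 (adjusted p = 0.0016). In LPS/HI+IDR injured against IDR 6 passed beside 7.5% of all genes, again with Dhcr7 (adjusted p = 0.0104) and Srebf2 (adjusted p = 0.00305) added. The ribosomal level read 10.39, 10.38, 10.36, 10.38 and 10.54 in Vehicle. In LPS/HI+IDR injured it read 10.38, 10.35, 10.70, 10.67 and 10.38. Values were 10.31, 10.28, 10.61, 10.34 and 10.52 in LPS/HI+IDR uninjured, and 10.37, 10.36, 10.24, 10.33 and 10.59 in IDR.

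**Figure D5:**
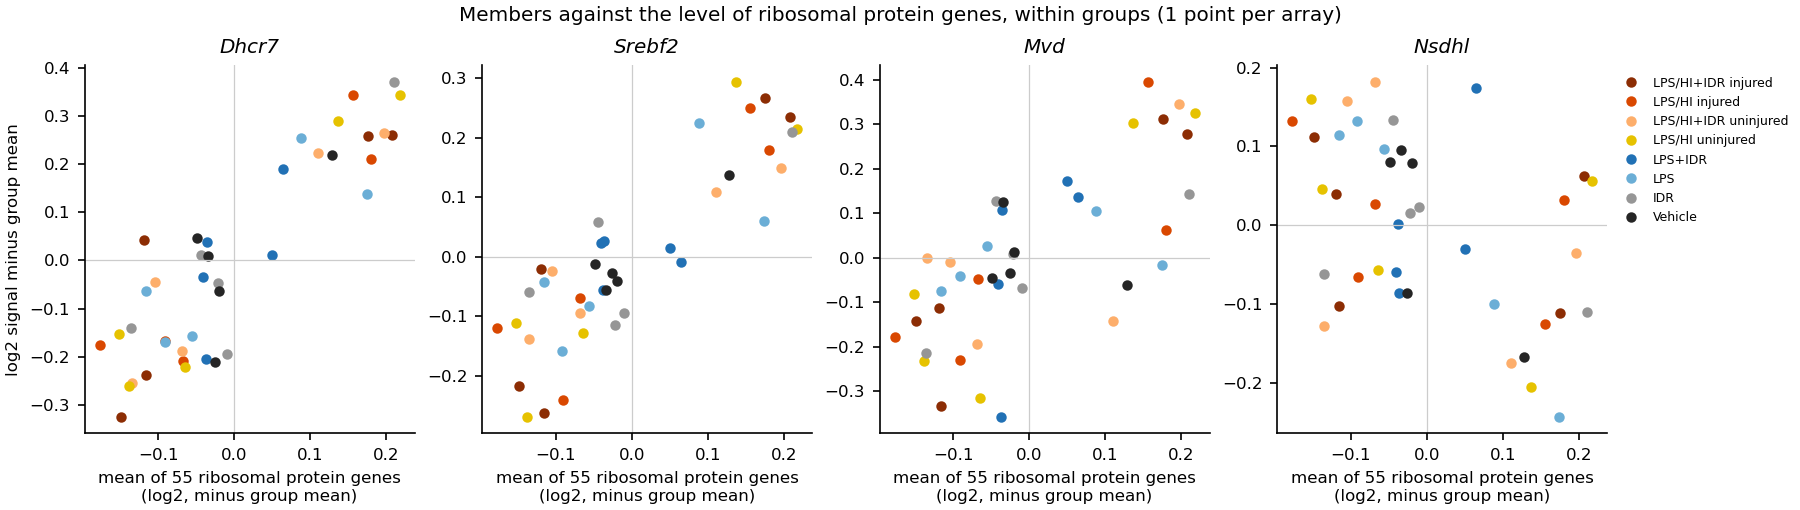
Deviation of each array from its group mean, with the mean of 55 ribosomal protein genes on the horizontal axis and the log2 signal of a gene on the vertical axis, by panel; points are the 40 arrays. The 14 arrays above their group mean in ribosomal level stand to the right, where Dhcr7, Srebf2 and Mvd are mostly high and Nsdhl averages -0.07.

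The genes most like the mean of the 8 over the 40 arrays, each gene centred, were Pomt1 (r = 0.899), Mvk (0.882), Rlbp1 (0.874), Fdps (0.859), Tm7sf2 (0.856), Lrrc73 (0.842), Gpr12 (0.841), Rxrg (0.841), Dkkl1 (0.836) and Doc2a (0.827). Of these, Mvk, Fdps and Tm7sf2 are cholesterol synthesis enzymes, Pomt1 is a protein O-mannosyltransferase and Rxrg a retinoid X receptor. Among the 100 genes most alike, 3 were of the 12 other enzymes measured. The r of those 12 enzymes ran from -0.08 to 0.88. When likeness was taken over the 8 group means instead, 0 of the 10 genes were named again.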

How the data were processed

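Total RNA of 40 brain samples was extracted with a lipid tissue kit, biotin-labelled and hybridised to Affymetrix arrays, per the labels' protocols. The authors deposited log2 signals made by RMA with the affy package, per the submitters' processing notes (versions not given in the sources used here). RMA quantile normalises, so shifts common to an entire array are removed. Of 34760 probe sets, 21640 carried 1 gene symbol in the array annotation, 1321 several and 11799 none. Those with 1 symbol were kept, the highest-mean probe set per gene, leaving 19937 genes with no filter on signal.

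Groups were compared by limma 3.58.1 (functions lmFit and eBayes; R 4.3.3, package data.table, version 1.17.8) on the arrays of the groups compared, with Benjamini-Hochberg adjustment over all genes and a threshold of 0.05. Errors are SE for log2 fold changes and SD for means (n = 5). The number of arrays limits precision: the median 95% half-width for the 8 genes was 0.156 to 0.279. The script was tested on simulated data. The 8 genes and all lists were chosen with earlier results of these data known. Named were all 8 genes, and every called enzyme, SREBP control gene and uptake target. Other lists have at most 2 called genes named per comparison, by absolute log2 fold change, apart from Cspg4, Mog, Mag and Ugt8a, named after their values were seen. Likeness is Pearson's r with the mean of the centred 8 genes.

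Same-numbered arrays had correlated deviations between hemispheres without peptide (r from 0.392 to 0.646, 5 of 5 best with their own number) and between LPS/HI injured and Vehicle (0.116 to 0.443). Between the uninjured groups with and without peptide r ran from 0.0503 to 0.591, with 4 of 5 best with their own number. The labels do not say what the number marks. Alternatives were a replicate block, 1 fit of all 8 groups, centring on the array median, the mean of a gene's probe sets, a filter at a mean log2 signal of 5, Xist as a covariate and each array left out. Added after seeing the data were a ribosomal covariate, the other Idi1 probe set, the block without number 3, and lists without LPS/HI injured replicate 3.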

Additional observations from a re-analysis of the deposited data

Results flagged for a closer look

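In Vehicle, Srebf2 had 1 array apart from the others. Replicate 5 read 10.43 on the log2 scale, while the other 4 arrays lay between 10.24 and 10.28. The gap to the nearest was 0.770 of the range of the group, above the limit of Dixon's test for 5 samples. It was the only one of 64 gene and group sets tested, where chance gives about 1 in 20. Without it the log2 fold change of Srebf2 in LPS/HI injured over Vehicle did not pass the threshold of limma. The same array had the highest ribosomal level in Vehicle (10.54, against 10.36 to 10.39 on the others). Within groups Srebf2 had an r of 0.867 with that level, and its part in this value was not tested.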

How the results depend on the processing

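Of the counts of genes that passed among the 8, those of 10 of 16 comparisons stayed within 1.5 times under every alternative, and centring on the array median, the mean of a gene's probe sets and the low-signal filter left all 16 there. With the replicate block 3 genes passed in place of 1 between LPS/HI injured and LPS/HI uninjured, 2 in place of 4 in LPS/HI+IDR injured against IDR (Hmgcs1 and Mvd lost), and 1 (Mvd, limma adjusted p = 0.0402) in place of 0 in LPS+IDR against IDR. In the first of these, 5 of 5 arrays correlated best with their own number, and in each of the others 1 of 5 did. The block moved no other count by over 1.5 times. With 1 fit over all 8 groups, 1 gene passed in place of 0 between the hemispheres with peptide (Nsdhl, adjusted p = 0.0249), in LPS/HI uninjured against Vehicle (Hmgcs1, 0.0117) and in LPS/HI uninjured against LPS (Hmgcs1, 0.0293). That fit pools the spread of all groups. With Xist as a covariate 2 genes passed in LPS/HI+IDR injured against IDR, Hmgcs1 (adjusted p = 0.108) and Mvd (0.069) being lost. The ribosomal covariate gave 4 genes between the hemispheres without peptide, 3 with peptide and 1 (Sqle, 0.0424) in LPS/HI uninjured against Vehicle. The block without number 3 gave 4 genes between the hemispheres without peptide, and the other Idi1 probe set gave 2. These last 3 alternatives were chosen after seeing the data. No share of all genes called is given for the fit over all groups, the Xist covariate or the block in the pairs with peptide. The same holds for the ribosomal covariate in LPS/HI uninjured against Vehicle. There a change in the count of the 8 cannot be told apart from one in all genes. With each array left out, 2 to 4 genes passed in LPS/HI+IDR injured against IDR and 0 to 1 in LPS+IDR against IDR. Of the single-gene values, 2416 stayed on their side of the threshold, 2260 of them with the same sign and 156 with the other sign, none of which were called. Another 32 newly passed, 17 no longer passed, 7 moved by over 1 SD, and 0 of those called changed sign. The causes of these changes were not tested. Signals low against background limit little here, since the 8 genes lay between the 66.5 and 99.1 percentiles of mean signal.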
